A study of Mus musculus with 6 samples.

Results

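*S100a4*, *S100a6*, *S100a8*, *S100a9*, *S100a10* and *S100a11* encode small proteins of the S100 family of calcium-binding proteins. These 6 genes were chosen by name from the 19449 genes of the single-cell table, and all 6 were measured. The study asked how the age of the recipient shapes experimental autoimmune encephalomyelitis, a mouse model of multiple sclerosis that was induced here by transferring IL-23-polarized CD4+ T cells reactive to the myelin protein MOG into C57BL/6 mice. Recipients were young (8 to 12 weeks) or middle-aged (40 to 44 weeks), and CD45+ cells were sorted from the spinal cord on day 6 or day 10 after transfer. Each of the 4 single-cell libraries pooled 4 spinal cords, so there was 1 library per age and day, no replicate, and no mouse could be told from another within a library. All 4 groups had received transferred cells, and the sort did not separate donor T cells from those of the host. In addition, microglia from naive mice of each age had been sequenced in bulk, with 1 library per age.

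S100 proteins bind calcium through a pair of EF-hand motifs and mostly work as dimers. S100A8 and S100A9 pair to form calprotectin, which fills the cytoplasm of neutrophils and is carried by monocytes. When released from damaged or activated cells it acts as an alarmin, a danger signal sensed by Toll-like receptor 4 and by the receptor RAGE. S100A4 binds non-muscle myosin and is known from motile cells, S100A10, which unlike the others does not bind calcium, forms a complex with annexin A2 at the plasma membrane, S100A6 binds annexins and is prominent in proliferating and migrating cells, and S100A11 binds annexin A1 and takes part in membrane repair. Because neutrophils hold so much *S100a8* and *S100a9* RNA, a droplet that holds another cell type also picks up some of it from the fluid, and both genes served here as a gauge of that free RNA.

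The 6 genes lie on mouse chromosome 3 (GRCm38, GENCODE vM21 annotation) in 2 groups. *S100a4* (chr3:90603771-90606045, plus strand), *S100a6* (chr3:90612882-90624181, plus strand), *S100a8* (chr3:90668978-90670035, plus strand) and *S100a9* (chr3:90692632-90695721, minus strand) fall within 91951 bases, and *S100a8* and *S100a9* face each other. *S100a11* (chr3:93520488-93526287, plus strand) and *S100a10* (chr3:93555080-93564643, plus strand) fall within 44156 bases and are separated from the other group by 2824766 bases. The transcripts annotated as the first of each gene all had 3 exons. The 250 bases before the RefSeq transcription start (GRCm38.p6) are shown for the neutrophil pair and for *S100a4*, which was near absent from neutrophil-like clusters, so that the 2 patterns can be set side by side. Capitals mark the letters TATAAA (plus strand, the TATA box), TTGCNNAA (a C/EBP site), GAGGAA (a PU.1 core) and TGANTCA (an AP-1 site), searched on both strands except for the TATA box.
S100a8: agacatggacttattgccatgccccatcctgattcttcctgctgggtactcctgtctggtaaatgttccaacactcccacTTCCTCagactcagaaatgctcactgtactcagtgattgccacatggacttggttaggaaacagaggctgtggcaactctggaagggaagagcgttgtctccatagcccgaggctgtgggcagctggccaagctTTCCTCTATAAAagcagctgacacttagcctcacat
S100a9: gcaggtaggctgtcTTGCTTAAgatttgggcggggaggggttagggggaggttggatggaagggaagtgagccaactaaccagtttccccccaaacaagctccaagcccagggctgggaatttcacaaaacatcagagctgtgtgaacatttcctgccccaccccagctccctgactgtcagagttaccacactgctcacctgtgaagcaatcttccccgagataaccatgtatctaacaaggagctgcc
S100a4: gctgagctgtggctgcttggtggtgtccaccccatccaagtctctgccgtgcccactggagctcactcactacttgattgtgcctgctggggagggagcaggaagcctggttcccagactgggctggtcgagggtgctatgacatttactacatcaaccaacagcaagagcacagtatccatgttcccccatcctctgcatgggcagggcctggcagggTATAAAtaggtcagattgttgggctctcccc

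These windows lie at chr3:90668821-90669070 on the plus strand for *S100a8*, chr3:90695722-90695971 on the minus strand for *S100a9* and chr3:90603520-90603769 on the plus strand for *S100a4*. *S100a8* held TATAAA 30 to 25 bases before the start, directly after GAGGAA on the opposite strand (positions -36 to -31, written TTCCTC in the strand shown), and a further TTCCTC at -170 to -165. *S100a9* held TTGCTTAA at -236 to -229 and none of the other letters, and *S100a4* held only TATAAA at -31 to -26. *S100a11* held GAGGAA at -153 to -148 and TGAGTCA at -136 to -130 and -38 to -32, and *S100a6* held none of the 4. Of 32851 mouse promoters in the table, 7.59% held TATAAA, 9.56% TTGCNNAA, 23.3% GAGGAA and 6.75% TGANTCA, so each match is a description of the letters. The promoter of *S100a10* was not in the table.

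The 38057 cells carried 16 deposited cluster numbers without cell type names. By marker lists, clusters 0, 3 and 6 were neutrophil-like, 1 and 5 monocyte/macrophage-like, 7 dendritic cell-like, 8 and 10 microglia-like, 2 T cell-like, 9 NK-like and 4 B cell-like. Marker support was lowest in clusters 0 and 5. There 8 of 12 and 6 of 10 list markers were higher than in the rest, with median log2 ratios of 0.47 and 0.43. Cluster 12 was led by *Fcnb*, *Camp*, *Ngp* and *Elane* together with dividing-cell markers, and cluster 11 by *Prss34*, *Mcpt8*, *Ctsg* and *Mpo* together with dividing-cell markers. Both stayed unnamed, as did clusters 13, 14 and 15, which carried markers of more than 1 lineage. None of the 10 leading genes of clusters 0, 5 or 8 was a marker of its own list, and cluster 8 had low depth (median 2059 to 3070 UMIs per cell, in young day 6 against 6196 over all cells of that library), so that the name of cluster 8 rests on its 9 microglia markers, all higher there than in the rest. A unique molecular identifier (UMI) marks 1 captured transcript, and levels below are UMIs of a gene per 1000000 UMIs (CPM) over all cells of a cluster in a library. Since 3′ counting reads 1 tag per transcript, CPM values of different genes can be set side by side without a correction for length, apart from differences in capture. Libraries held 8315 to 10026 cells and 57337626 to 69859331 UMIs. Pairs of libraries shared 13 to 36 cell barcodes.

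The young day 10 library stood apart in its neutrophil RNA. *S100a8* and *S100a9* together made up 1.04% of all UMIs in young day 6, 1.22% in middle-aged day 6, 4.43% in young day 10 and 1.17% in middle-aged day 10. Clusters 6 and 12 held 6.56% of the cells of young day 10 but 0.469% to 1.03% of those of the other libraries. Neutrophil-like clusters 0, 3 and 6 with cluster 12 held 21.5%, 41.7%, 29.4% and 24.6% of the cells, in the same order of libraries, and 73.2% to 87.3% of the *S100a8* and *S100a9* UMIs. Thus the library with the largest share of these cells, middle-aged day 6, was not the library with the most *S100a8* and *S100a9*. No doublet caller was run.

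*S100a8* and *S100a9* were by far the most abundant members, and both were highest in clusters 6 and 12. In neutrophil-like cluster 6, *S100a8* stood at 113495 CPM in young day 6, 144422 in middle-aged day 6, 134646 in young day 10 and 134841 in middle-aged day 10. *S100a9* stood at 156922, 180994, 177951 and 161542 CPM in the same libraries, so the pair took 27.0% to 32.5% of all UMIs of these cells. In cluster 3 the pair was lower, with *S100a8* at 54406 to 111225 CPM and *S100a9* at 90049 to 140994. In cluster 0, the largest neutrophil-like cluster with 9257 cells, *S100a8* stood at 13266 to 20386 CPM and *S100a9* at 21734 to 26440. The 4 libraries of cluster 0 did not overlap those of cluster 3, nor did cluster 3 overlap cluster 6 for either gene. *S100a9* exceeded *S100a8* in each library of clusters 0, 3, 6 and 12.

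The balance within the pair differed between days in 2 of the 3 neutrophil-like clusters. *S100a8* was 36.8% and 37.9% of the pair in cluster 0 on day 6 (young, then middle-aged) and 44.4% and 47.5% on day 10. In cluster 3 it was 37.7% and 37.8% on day 6 and 44.1% and 41.9% on day 10, so that both day 10 libraries lay above both day 6 libraries in both clusters. In cluster 6 the share was 42.0% and 44.4% on day 6 and 43.1% and 45.5% on day 10, and the days overlapped.

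*S100a6* and *S100a11* were broadly expressed and were also highest in neutrophil-like clusters 3 and 6. *S100a6* stood at 4731, 2788, 11498 and 7868 CPM in cluster 3 and at 5391, 5426, 5820 and 7216 in cluster 6 (young day 6, middle-aged day 6, young day 10, middle-aged day 10). The 2 clusters overlapped, and in cluster 3 both day 10 libraries exceeded both day 6 libraries. *S100a11* stood at 4617, 3952, 6865 and 5585 CPM in cluster 3 and at 3099 to 3556 in cluster 6. Outside neutrophils, *S100a6* ran from 1208 to 2695 CPM over macrophage-like clusters 1 and 5, dendritic cell-like cluster 7 and T cell-like cluster 2, and *S100a11* from 586 to 1307 CPM. B cell-like cluster 4 had the lowest median over libraries for *S100a6* (62.7 to 272 CPM) and microglia-like cluster 10 the lowest for *S100a11* (136 to 179 CPM), and these 2 clusters overlapped each other for both genes.

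*S100a4* and *S100a10* showed the opposite arrangement, with very little RNA in neutrophils. In the neutrophil-like clusters 0, 3 and 6, *S100a4* stood at 4.98 to 62.8 CPM and *S100a10* at 2.49 to 63.8 CPM. *S100a4* was highest in T cell-like cluster 2 (1356, 989, 2659 and 2298 CPM), macrophage-like cluster 5 (2090, 1304, 2035 and 1610 CPM) and dendritic cell-like cluster 7 (1514, 1213, 1655 and 2047 CPM), and these 3 clusters overlapped each other and cluster 11. *S100a10* was highest in cluster 2 (1517, 1227, 1241 and 1231 CPM), cluster 11 (1426, 1250, 1177 and 1164 CPM) and NK-like cluster 9 (1011, 885, 892 and 844 CPM), and cluster 9 lay below cluster 2 in each library. The 2 genes parted in NK-like and B cell-like cells. *S100a4* stood at 91.1 to 311 CPM in cluster 9 and at 4.82 to 45.8 CPM in cluster 4, whereas *S100a10* stood at 253 to 442 CPM in cluster 4.

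**Figure D1:**
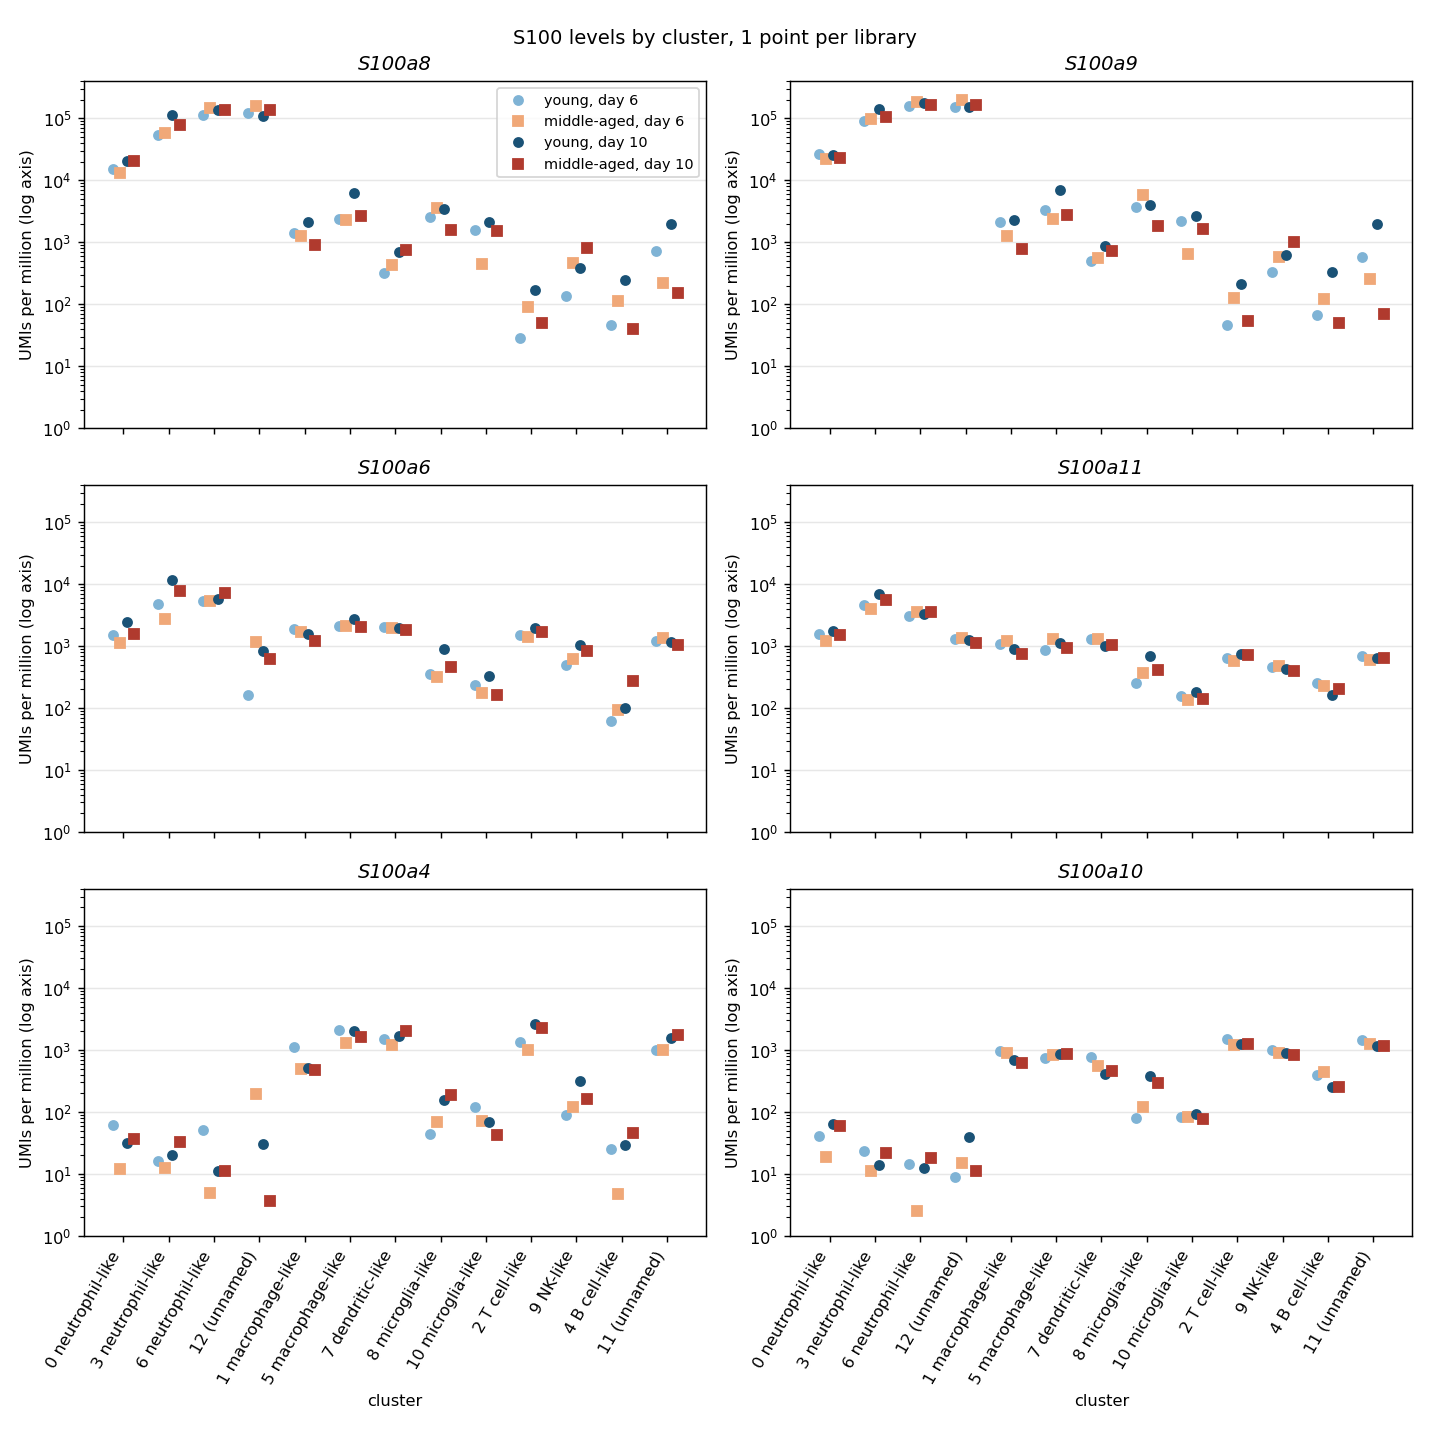
Levels of the 6 members in CPM (log axis) in 13 clusters, with 1 point per library; circles are young, squares middle-aged, light colours day 6 and dark colours day 10. *S100a8* and *S100a9* exceed 10000 in clusters 0, 3, 6 and 12, where *S100a4* and *S100a10* are mostly below 100; *S100a4* in cluster 12 of young day 6 was 0 and has no point.

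Across the 52 sums of a cluster in a library that held 50 or more cells, the members fell into 3 pairs by rank correlation. Spearman's rho was 0.99 between *S100a8* and *S100a9*, 0.91 between *S100a6* and *S100a11* and 0.78 between *S100a4* and *S100a10*, while it was -0.69 between *S100a8* and *S100a10*. The sums share libraries and depth, so these values are descriptions. Among the 5886 genes compared, those most like *S100a8* were *Lcn2* (rho 0.98), *Wfdc21* (0.96) and *Lrg1* (0.96), and those most like *S100a9* were *Lcn2* (0.97), *Lrg1* (0.96) and *Retnlg* (0.95). *Lcn2* encodes lipocalin 2 of neutrophil granules. *S100a6* was most like *Chp1* (0.87), *Arpc5* (0.85) and *Adam8* (0.84), and *S100a11* like *Chp1* (0.90), *Cdk2ap2* (0.89) and *Adam8* (0.89). *S100a4* was most like *Ece1* (0.89), *Avpi1* (0.88) and *Mdfic* (0.86), and *S100a10* like *Tmsb10*, which encodes an actin-binding thymosin (0.94), *Lgals1*, which encodes galectin 1 (0.94), and *Capn2*, a calpain protease (0.93).

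T cells and B cells do not make calprotectin, so the UMIs of *S100a8* and *S100a9* in clusters 2 and 4 served as the background level. In B cell-like cluster 4 the pair stood at 114 CPM in young day 6, 236 in middle-aged day 6, 578 in young day 10 and 89.1 in middle-aged day 10. In T cell-like cluster 2 it stood at 75.5, 216, 384 and 105 CPM in the same libraries. Both clusters were thus highest in young day 10, the library with the most *S100a8* and *S100a9*, and the background came to 0.724% to 1.93% of the mean level of each whole library. In middle-aged day 6, 51.4% of the pair's UMIs in cluster 2 and 53.7% of those in cluster 4 sat in the 5 and 2 cells that also held 5 or more UMIs of 11 other neutrophil genes (*Camp*, *Ngp*, *Ltf*, *Lcn2*, *Mmp8*, *Mmp9*, *Retnlg*, *Csf3r*, *Cxcr2*, *Ly6g* and *Wfdc21*). Without such cells the level there was 106 and 112 CPM, against 73.8 and 114 CPM in young day 6.

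The background reached many single cells. After each cell was thinned to 2000 UMIs, 19.0%, 19.1%, 68.5% and 16.6% of the cells of cluster 4 held at least 1 UMI of *S100a8* or *S100a9* (young day 6, middle-aged day 6, young day 10, middle-aged day 10). In cluster 2 the shares were 12.7%, 15.7%, 51.4% and 16.3%. Median depths were 2402 to 2997 UMIs per cell in cluster 4 and 4715 to 6225 in cluster 2, and cells under 2000 UMIs were left out. A share at or below these values was read as background, not as expression. Dendritic cell-like cluster 7 gave 12%, 23.7%, 46.8% and 22.5% and NK-like cluster 9 gave 14.7%, 22.7%, 63.55% and 22.6%, so both lay below the B cells in young day 6 and young day 10 and above them in both middle-aged libraries. These differences were not tested.

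Macrophage-like and microglia-like clusters held far more of the pair than B cells, at 1703 to 13110 CPM in clusters 1 and 5 and 1109 to 9500 CPM in clusters 8 and 10. In clusters 8 and 10 most of it sat in few cells. The median cell there held 0 to 3 UMIs of the pair, while the richest cell of each library held 384 to 3221. Cells with 5 or more UMIs of the 11 other neutrophil genes were 6.43% to 14.8% of cluster 8 and 6.94% to 16.3% of cluster 10, and they held 91.3% to 96.7% and 75.6% to 97.4% of the pair's UMIs. In clusters 1 and 5 such cells held 89.4% to 98.7%, but they were more numerous, at 16.2% to 25.5% of cluster 1 and 17.3% to 62.1% of cluster 5. The cut was on raw UMIs and was not matched for depth. Median depth was 8311 to 10094.5 UMIs per cell in cluster 1 and 8538 to 10762 in cluster 5, against 2059 to 3070 in cluster 8. *Csf3r*, 1 of the 11 genes, stood at 63.0 to 127 CPM in cluster 1 and 106 to 147 CPM in cluster 10. The 10 richest cells of cluster 1 held 14.4% to 32.3% of the pair. Without cells of 5 or more neutrophil-gene UMIs, the pair stood at 265, 446, 747 and 280 CPM in cluster 8 and at 149, 345, 359 and 102 CPM in cluster 10 (young day 6, middle-aged day 6, young day 10, middle-aged day 10). Young day 10 was then the highest library in clusters 1, 2, 4, 5, 7, 8, 10 and 11, as it was in the T and B cell background.

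**Figure D2:**
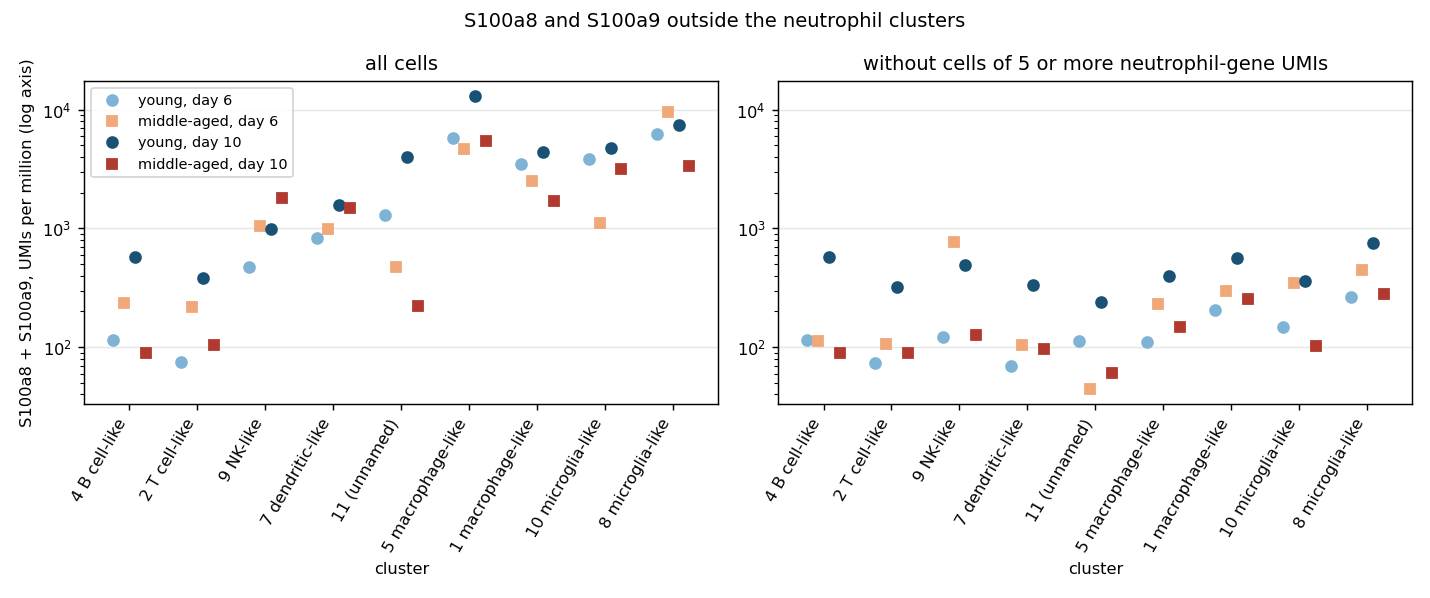
Summed level of *S100a8* and *S100a9* in CPM (log axis) in 9 clusters that are not neutrophil-like, over all cells (left) and without cells that hold 5 or more UMIs of 11 other neutrophil genes (right); each point is 1 library. On the left the clusters span 75.5 to 13110, on the right 44.2 to 775, with young day 10 highest in 8 of the 9 clusters. The 775 is cluster 9 in middle-aged day 6, where 1 cell held 250 of the 280 UMIs.

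Set against B cells of the same library, the levels without those cells were 1.79, 2.68, 0.981 and 2.85 times as high in cluster 1 and 2.32, 4.00, 1.29 and 3.15 times in cluster 8. They were 0.969, 2.08, 0.684 and 1.64 times as high in cluster 5 and 1.31, 3.09, 0.622 and 1.14 times in cluster 10, so that in young day 10 clusters 1, 5 and 10 lay below the B cells. Clusters 2 and 7 stood at 0.558 to 1.08 times the level of cluster 4. Because the cut was on raw UMIs, these ratios are not matched for depth. The balance of the pair also differed from the background. In cluster 1, *S100a8* made up 53.2%, 73.0%, 67.9% and 78.7% of the remaining pair. The exact binomial interval ran from 51.6% to 54.9% in young day 6 and from 77.5% to 79.9% in middle-aged day 10. In cluster 2 it made up 36.4%, 45.1%, 43.8% and 44.4% and in cluster 4 40.2%, 44.1%, 42.3% and 44.8%. *S100a8* was thus more abundant than *S100a9* in each library of cluster 1 once cells with neutrophil genes were left out, and less abundant in each library of clusters 2 and 4, although the interval of cluster 4 reached past 50% in all but young day 10. Macrophage-like cluster 5 was between them (43.9%, 56.1%, 59.2% and 70.03%). Shares above 50% were not limited to macrophage-like clusters. After the same cut the share was 47.9%, 39.2%, 61.9% and 63.3% in microglia-like cluster 8 and 43.0%, 49.8%, 46.2% and 53.7% in cluster 10. In neutrophil-like cluster 0 it was 36.6%, 39.7%, 49.5% and 55.2%. Whether cells with fewer than 5 neutrophil-gene UMIs carry part of this was not tested.

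For the comparison of recipients by age, counts summed by cluster and library were fitted with edgeR's quasi-likelihood test with the day as a second term, in clusters 0, 1, 2, 8 and 10 and over all genes with enough counts. The fit has 1 residual degree of freedom, which holds the difference of the age effect between the days. Its p-values thus do not measure a spread between replicates. Fits with a library left out, here and for day, dropped the second term, so that age and day are partly mixed in their values. In the 4 libraries a batch cannot be told apart from age and day. At a Benjamini-Hochberg adjusted p below 0.05, 0 of the 6 members were called for age in each of the 5 clusters, where 0.208% (cluster 0), 0.0982% (cluster 1), 0.0616% (cluster 2), 0.0956% (cluster 8) and 0.142% (cluster 10) of all genes tested were called. At an unadjusted p below 0.05 the test gave 3, 3, 0, 1 and 4 members, where 7.67%, 3.31%, 2.46%, 3.39% and 3.37% of all genes had such a p. DESeq2 called 1 member in 1 cluster, *S100a9* in cluster 1, where it called 0.0982% of genes.

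In macrophage-like cluster 1, on day 6 *S100a9* stood at 2112 CPM in the young library and 1254 in the middle-aged one, and on day 10 at 2280 and 786 CPM. Both middle-aged libraries lay below both young libraries. The age ratio (middle-aged over young, log2) was -0.75 (95% interval from counting error, -0.77 to -0.73) on day 6 and -1.54 (-1.56 to -1.51) on day 10. The fit gave -1.09 with an adjusted p of 0.21 by edgeR's quasi-likelihood test, and DESeq2 an adjusted p of 0.0458. Cells with 5 or more UMIs of the 11 other neutrophil genes held 95.5%, 91.0%, 91.1% and 89.4% of the pair in this cluster (young day 6, middle-aged day 6, young day 10, middle-aged day 10). Without them the fit gave -0.95 for *S100a9* (adjusted p = 1.00, edgeR) and 0.08 for *S100a8*, whose log2 ratio on day 6 turned from -0.14 to 1.01.

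In microglia-like cluster 10, on day 6 *S100a8* stood at 1595 CPM in the young library and 451 in the middle-aged one, and on day 10 at 2096 and 1521 CPM. *S100a9* stood at 2222 and 658 CPM on day 6, and at 2643 and 1616 CPM on day 10. The middle-aged libraries lay below the young of the same day for both genes. edgeR gave log2 fold changes of -1.11 for *S100a8* (adjusted p = 0.999) and -1.20 for *S100a9* (adjusted p = 0.843). They ranged from -2.09 and -1.94 without middle-aged day 10 to -0.21 and -0.51 without middle-aged day 6, in fits without the day term. Without cells that held neutrophil genes, they were -0.06 and -0.46, and the log2 ratio of *S100a9* on day 6 turned to 1.03. *S100a4* stood at 119 and 72.2 CPM on day 6 and at 68.9 and 42.7 on day 10 in this cluster, with log2 ratios of -0.72 (-0.98 to -0.46) and -0.69 (-1.003 to -0.38) and an adjusted p of 0.635 by edgeR. When cells with UMIs of other lineages were left out as well, *S100a4* in cluster 10 rested on 21, 3, 11 and 13 UMIs, too few to compare the ages. On the same cells *S100a8* stood at 78.3, 30.8, 196 and 44.8 CPM, with a log2 fold change for age of -1.80 (adjusted p = 0.00909, edgeR), while *S100a9* gave -1.09 and was not called (adjusted p = 0.480). Of all genes tested on these cells 0.0731% were called. In microglia-like cluster 8 the cells so chosen gave -1.10 for *S100a8* (155, 117, 282 and 88.4 CPM, adjusted p = 0.00146) and -0.98 for *S100a9* (adjusted p = 0.0053), against -0.30 and -0.22 over all cells, which were not called. Here 0.255% of genes were called. This setting was added after the data were seen. Over all B cells of the same libraries, with no cells left out, *S100a8* stood at 45.9, 112, 245 and 39.9 CPM. Of the pair's UMIs in B cells of middle-aged day 6, 53.7% sat in 2 neutrophil-gene cells. Without such cells the pair in B cells stood at 114, 112, 577 and 89.1 CPM. The part of free RNA in these calls was not tested.

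In T cell-like cluster 2 the age ratio of *S100a8* was 1.69 on day 6 and -1.75 on day 10 (log2), and that of *S100a9* 1.40 and -1.97. The B cell background gave 1.29 and -2.62 for *S100a8* and 0.86 and -2.76 for *S100a9*, and the whole libraries gave 0.23 and -1.92 for the pair. Over all cells the T cell values thus had the sign of the B cell values on both days. Without cells of 5 or more neutrophil-gene UMIs, the pair in B cells differed little on day 6, at 114 (young) and 112 CPM (middle-aged). In T cells it then stood at 73.8 and 106 CPM on day 6. On day 10 it was 577 and 89.1 CPM in B cells and 322 and 89.3 CPM in T cells. The other members differed little by age in cluster 2: *S100a4* by -0.46 and -0.21, *S100a6* by -0.09 and -0.22, *S100a10* by -0.31 and -0.01 and *S100a11* by -0.14 and -0.05.

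Outside the 5 fitted clusters the ages could be compared only as values. With 1.5-fold in the same direction on both days as the mark, *S100a6* was higher in middle-aged B cell-like cluster 4 (62.7 and 94.8 CPM on day 6, 100.5 and 272 CPM on day 10, young before middle-aged), where the 95% interval of the log2 ratio on day 6 was 0.04 to 1.15 and 0.482% of the genes tested reached that mark. The 10 monocyte/macrophage markers moved with it in these B cell-like cells, with a sum of 1173 and 2113 CPM on day 6 and 2177 and 3665 CPM on day 10, and 5 of the 10 were higher in middle-aged mice on both days. Their part in the *S100a6* values was not tested. *S100a8* and *S100a9* were higher in middle-aged NK-like cluster 9, where 0.546% of genes did, and lower in middle-aged cluster 11, where 2.90% did. In cluster 9, 85.4%, 95.4%, 57.6% and 95.5% of the pair's UMIs came from the 10 richest cells of each library, and in cluster 11 96.9%, 93.8%, 82.5% and 76.1% did. Without cells that held 5 or more neutrophil-gene UMIs, the pair in cluster 9 stood at 121 and 775 CPM on day 6 and at 491 and 127 CPM on day 10 (young before middle-aged), so that the direction turned on day 10. The 775 CPM rested mostly on 1 cell, which held 250 of the 280 UMIs of the pair that were left. In cluster 11 the pair stood at 113 and 44.2 CPM and then 242 and 61.1 CPM, still lower in middle-aged mice. In fitted clusters 1 and 10, *S100a9* reached it downwards in both (0.357% and 0.32% of genes did) and *S100a4* in cluster 10. In neutrophil-like cluster 0 no member reached the mark, where 0.167% of genes were higher and 0.464% lower, and *S100a6* came closest, at 1515 and 1104 CPM on day 6 and 2409 and 1565 CPM on day 10.

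**Figure D3:**
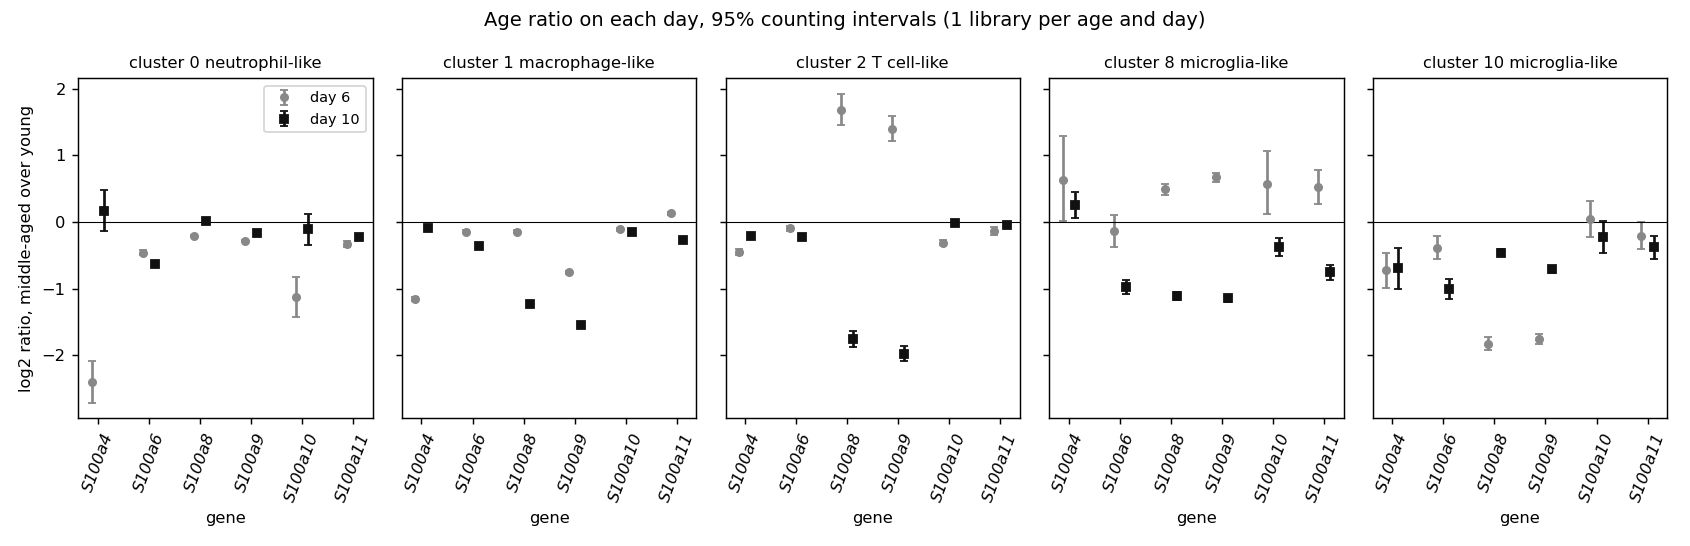
Log2 ratio of middle-aged over young levels for each member on day 6 (grey circles) and day 10 (black squares) in the 5 clusters that were fitted; bars are 95% intervals from counting error, with 1 library per age and day. In the T cell-like cluster *S100a8* and *S100a9* lie at 1.69 and 1.40 on day 6 and at -1.75 and -1.97 on day 10, and the other 4 members lie between -0.46 and 0.

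Between days, *S100a4* rose in T cells. It stood at 1356 CPM (young) and 989 CPM (middle-aged) on day 6 and at 2659 and 2298 CPM on day 10, without overlap of the days. After thinning to 2000 UMIs, 55.1% and 52.3% of the T cell-like cells held *S100a4* on day 6, and 69.6% and 69.7% on day 10. edgeR's quasi-likelihood test with age as a second term gave a log2 fold change of 1.20 (adjusted p = 0.000424), and 1 of 6 members was called in cluster 2, where 7.22% of all genes tested were called and 3.97% were higher on day 10. With each library left out in turn, in fits without the age term, the value was 1.01 to 1.40. Without cells that held UMIs of neutrophil, B cell or monocyte genes, which left 2560 of 6830 cells, the value was 1.80, and *S100a6* was then also called (1.01, adjusted p = 0.000222, against 0.46 and 0.211 over all cells). On these cells 4 of 6 members were called, where 6.65% of genes were. The others were *S100a8* (1.09, adjusted p = 0.00148, edgeR) and *S100a9* (0.87, adjusted p = 0.0204). This exclusion was chosen after the data were seen. *S100a8* and *S100a9* in cluster 2 were higher on day 10 in young mice (log2 ratios 2.58 and 2.19) and lower in middle-aged mice (-0.86 and -1.19). Over both ages and all cells they were not called (0.92 and 0.59). Without neutrophil-gene cells they were called (1.16, adjusted p = 0.0375, and 0.97, adjusted p = 0.0476, edgeR), where 8.1% of genes were. Over all cells the value without young day 10 was -0.18 for *S100a8* and -0.58 for *S100a9*, and without middle-aged day 6 it was 2.104 and 1.67, at which both were called. Without neutrophil-gene cells the pair was still higher on day 10 in young mice only (73.8 and 322 CPM, against 106 and 89.3 CPM in middle-aged mice). *S100a10*, the other member abundant in T cells, gave -0.04 (adjusted p = 0.961) and stood at 1517, 1227, 1241 and 1231 CPM.

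In macrophage-like cluster 1, 3 of 6 members fell from day 6 to day 10, where 29.9% of all genes tested were called and 15.2% were lower. *S100a4* stood at 1105 and 498 CPM on day 6 (young, middle-aged) and 508 and 478 CPM on day 10, so the fall was in the young and the fitted value of -0.76 (adjusted p = 0.0306, edgeR) became -0.24 without young day 6. *S100a10* stood at 959 and 889 CPM on day 6 and 687 and 622 CPM on day 10 (log2 fold change -0.67, adjusted p = 0.0245), and *S100a11* at 1087 and 1193 CPM and then 904 and 749 CPM (-0.64, adjusted p = 0.0394). For both the days did not overlap. Without cells that held neutrophil genes, *S100a4* gave -0.72 and was no longer called (adjusted p = 0.0866), and *S100a10* and *S100a11* were, where 23.2% of genes were called. Leaving out young day 10 or middle-aged day 10 ended all 3 calls, at -0.88 and -0.78 for *S100a4*, -0.73 and -0.57 for *S100a10* and -0.77 and -0.48 for *S100a11*. Annexin A2, the partner of S100A10, was encoded by a transcript that fell in the same cluster, from 675 and 782 CPM to 401 and 358 CPM (*Anxa2*, -1.11, adjusted p = 0.00183). The median gene of this cluster was 0.08 (young) and 0.22 (middle-aged) higher on day 10 on the log2 CPM scale, and the fit is relative to that shift.

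In microglia-like cluster 8, 4 of 6 members were higher on day 10, where 13.4% of all genes tested were called and 6.5% were higher. *S100a4* stood at 44.5 and 69.2 CPM on day 6 and 159 and 191 CPM on day 10 (1.89, adjusted p = 4.1e-06, edgeR), and *S100a10* at 79.9 and 119 CPM and then 376 and 290 CPM (1.99, adjusted p = 3.49e-06). *S100a6* went from 353 and 321 CPM to 907 and 462 CPM (1.21, adjusted p = 0.00021) and *S100a11* from 258 and 371 CPM to 684 and 406 CPM (1.03, adjusted p = 0.0045). The days did not overlap for any of the 4 genes, and the median gene of this cluster was lower on day 10 by CPM (log2 ratios -0.29 and -0.27). DESeq2 did not call *S100a11* (adjusted p = 0.0902), nor did edgeR without young day 10 (log2 fold change 0.68). Without cells of 5 or more neutrophil-gene UMIs, 5 of 6 members were called higher by edgeR, where 11.4% of genes were called. The values were 1.98 for *S100a4*, 2.16 for *S100a6*, 1.94 for *S100a10*, 2.18 for *S100a11* and 1.20 for *S100a8*. Markers on the T cell and monocyte/macrophage lists were also higher in the day 10 libraries over all cells. The 8 T cell markers and 8 of 10 monocyte/macrophage markers were higher on day 10 at both ages, the summed T cell markers went from 93.7 and 129 CPM to 245 and 266 CPM, and the summed monocyte/macrophage markers from 9798 and 8559 CPM to 27933 and 33318 CPM. The monocyte/macrophage list includes *Apoe*, *C1qb* and *Adgre1*, and *C1qa* was among the 10 leading genes of cluster 8, so that sum need not come from other cells. The 9 microglia markers summed to 6193 and 4015 CPM on day 6 and 2679 and 3248 CPM on day 10, with 0 of 9 higher on day 10 at both ages.

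When cells with 5 or more neutrophil-gene UMIs or 2 or more UMIs of T cell, B cell or monocyte genes (*Ly6c2*, *Ccr2*, *Fn1*, *Chil3*, *Plac8*, *Arg1*) were left out of cluster 8, 188, 208, 235 and 366 cells remained of 249, 364, 668 and 776. In these, *S100a10* stood at 29.1 and 29.7 CPM on day 6 and 23.5 and 35.6 CPM on day 10, and *S100a11* at 46.1 and 71.3 CPM and then 56.1 and 58.1 CPM. *S100a6* stood at 89.8, 17.8, 59.7 and 62.0 CPM and *S100a4* at 24.3, 9.90, 19.9 and 56.7 CPM in young day 6, middle-aged day 6, young day 10 and middle-aged day 10. The calls of *S100a6* (0.69, adjusted p = 0.191), *S100a10* (0.33, adjusted p = 0.732) and *S100a11* (0.26, adjusted p = 0.708) were lost by edgeR's test on these cells. *S100a4* kept its call (1.51, adjusted p = 0.0195, edgeR) on 10, 5, 11 and 43 UMIs, where 10.4% of genes were called. By CPM it was higher on day 10 in middle-aged mice only. This exclusion was chosen after the data were seen. In microglia-like cluster 10 treated in the same way, the 4 genes stood at 4.02 to 36.2 CPM in each library. There *S100a6* was called higher on day 10 (1.34, adjusted p = 0.0425, edgeR) on 28, 7, 24 and 23 UMIs, where 7.09% of genes were called. All 4 genes were at or below 89.8 CPM in the cells of clusters 8 and 10 that passed these limits.

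**Figure D4:**
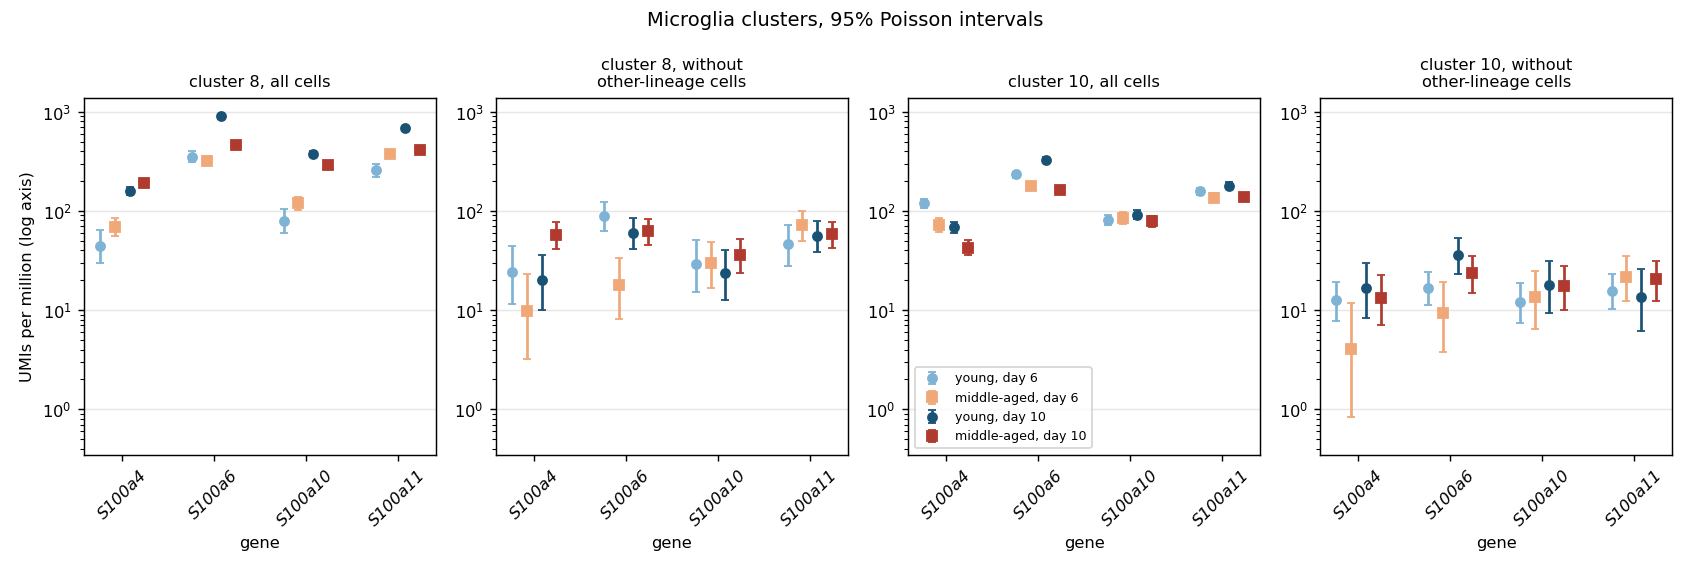
Levels of *S100a4*, *S100a6*, *S100a10* and *S100a11* in CPM (log axis) in the microglia-like clusters 8 and 10, over all cells and without cells that carry UMIs of other lineages; points are libraries and bars 95% Poisson intervals. In cluster 8 the day 10 points stand above the day 6 points over all cells and overlap them for each gene after the exclusion.

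In cluster 10, 0 of 6 members were called between days by edgeR, where 6.64% of all genes tested were. An unadjusted p below 0.05 was found for 3 of 6 members and for 20.9% of all genes. DESeq2 called *S100a8* (1.22, adjusted p = 0.0401), where it called 1.36% of genes. By edgeR this value ranged from 0.36 without middle-aged day 6 to 2.12 without young day 6, and it was 0.05 without neutrophil-gene cells (adjusted p = 0.968) and 1.20 without cells of other lineages (adjusted p = 0.0111). In neutrophil-like cluster 0, 2 of 6 members were called, both lower on day 10, where 54.4% of all genes tested were called and 27.2% were lower. *S100a9* gave -0.77 (adjusted p = 0.000159, edgeR) and *S100a11* -0.54 (adjusted p = 0.0025). This direction is relative to other genes: the median gene of cluster 0 was 0.57 (young) and 0.64 (middle-aged) higher on day 10 on the log2 CPM scale, and by CPM *S100a9* changed by -0.07 and 0.05 and *S100a11* was higher by 0.17 and 0.28. Without young day 10 or middle-aged day 10 neither was called, at -0.77 and -0.64 for *S100a9* and -0.57 and -0.38 for *S100a11*.

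Clusters that were not fitted could be compared between days only as values, by the same mark of 1.5-fold at both ages. In cluster 3, *S100a6* was higher on day 10 by 1.28 and 1.497 (log2 CPM) at the 2 ages, and 11.4% of the genes tested there were at least 1.5-fold higher at both. B cell-like cluster 4 parted the members. *S100a6* was higher there on day 10 (log2 ratios 0.68 in young and 1.52 in middle-aged mice), where 0.891% of genes were. The monocyte/macrophage markers were higher there on day 10 as well, with 5 of 10 higher at both ages (sums given above). *S100a10* was lower, at 400 and 442 CPM on day 6 and 256 and 253 CPM on day 10 (-0.65 and -0.80), where 1.49% were. *S100a4* was higher in cluster 11, at 1019 and 995 CPM on day 6 and 1591 and 1778 CPM on day 10, where 1.27% of genes were. *S100a8* was higher in dendritic cell-like cluster 7 (321 and 432 CPM, then 702 and 743 CPM), where 2.42% were, and *S100a8* and *S100a9* were higher in NK-like cluster 9, where 0.833% were. In cluster 7, cells with 5 or more UMIs of the 11 other neutrophil genes held 81.3% to 94.1% of the pair, and in cluster 9 they held 29.1% to 93.6%. Without them, the pair in cluster 9 was higher on day 10 in young mice (121 and 491 CPM) but lower in middle-aged mice (775 and 127 CPM). The 775 CPM rested mostly on 1 cell, with 250 of the 280 UMIs left. In cluster 7 the pair likewise went from 69.0 to 331 CPM in young and from 104 to 96.2 CPM in middle-aged mice.

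Other S100 genes and the binding partners were read from lists. Of 10 further S100 genes, *S100a13* and *S100a1* were the only ones whose median over libraries passed 50 CPM in some cluster, *S100a13* at 337 to 413 CPM in T cell-like cluster 2 and *S100a1* at 23.0 to 113 CPM in cluster 8. *S100a1* was called higher on day 10 in each of the 5 fitted clusters, by 1.32 in cluster 0, 1.37 in cluster 1, 1.498 in cluster 2, 2.27 in cluster 8 and 1.59 in cluster 10 (adjusted p from 2.9e-06 to 0.00458, edgeR). *Tlr4*, the receptor of calprotectin, was highest in neutrophil-like clusters 0 and 3, at 81.5 to 201 CPM in cluster 0, and was lower on day 10 in cluster 0 (-1.82, adjusted p = 7.12e-08) and cluster 1 (-0.88, adjusted p = 0.00341). *Ager*, which encodes RAGE, had at most 4.75 CPM in any cluster and library. None of the partners or further S100 genes was called for age in the 5 clusters by edgeR. *Anxa1*, whose protein binds S100A11, was highest in clusters 12 and 6 (2154 to 3882 and 2199 to 3412 CPM).

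Bulk microglia of naive mice held few reads of *S100a4* and *S100a6*. The young library held 79373420 counts and the middle-aged one 76293436. *S100a8* had 2805 and 3383 reads, *S100a9* 3352 and 3536, *S100a10* 286 and 270, *S100a11* 234 and 151, *S100a6* 52 and 26 and *S100a4* 2 and 0. *Tmem119*, a defining microglial gene, was present in both libraries (266344 and 261668 reads). Reads are not divided by gene length, so only the ages are compared, gene by gene. The age ratio (log2) was 0.33 (0.25 to 0.40) for *S100a8*, 0.13 (0.07 to 0.20) for *S100a9*, -0.03 (-0.27 to 0.22) for *S100a10*, -0.57 (-0.88 to -0.27) for *S100a11* and -0.94 (-1.68 to -0.24) for *S100a6*, with intervals from counting error only and 1 library per age, so that no test was possible. No member with 100 or more reads over both libraries differed by 1.5-fold (*S100a4* and *S100a6* were under that minimum), where 9.57% of such genes were lower and 4.81% higher in middle-aged mice by that much. Genes of the neutrophil list were present beside them: of the 11 genes listed above, 6 had a ratio above 0 and 5 below, from -0.53 for *Mmp9* (571 and 381 reads) to 0.35 for *Cxcr2* (31 and 38 reads). The counting interval lay above 0 for 4 of them, *Camp* (1445 and 1570 reads), *Ngp* (5583 and 6402), *Ltf* (4438 and 4952) and *Csf3r* (36703 and 42707), and below 0 for *Mmp9*. *Csf3r* was also present outside neutrophil-like clusters, at 106 to 147 CPM in microglia-like cluster 10 of the single-cell libraries. The part of neutrophil RNA in the *S100a8* and *S100a9* reads was not tested. *S100a16* had 384 and 48 reads and *Cldn5*, an endothelial gene, 5124 and 892. In bulk samples, fewer cells of a type and less RNA per cell cannot be told apart.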

How the data were processed

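CD45+ cells from the spinal cords of recipients were profiled with the 10x 3′ kit in 4 libraries, and microglia of naive mice by bulk RNA-seq in 2. The deposited single-cell values are UMI counts, not normalized, for each gene in each cell, which the authors made with Cell Ranger (version 3.1.0 per the submitters' processing notes) on mm10 and filtered in Seurat on genes, depth, mitochondrial and ribosomal share. The deposited bulk values are raw read counts per gene, which the authors made with HISAT2 on GRCm38 and unstranded featureCounts. Cluster numbers were taken from the deposited cell annotation, and clusters were called "-like" only by the marker lists. No doublet caller was run here, and all columns of cells could be mapped to a library.

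UMIs were summed by cluster and library and divided by the total (CPM), with 95% Poisson intervals, exact conditional intervals for ratios and exact Clopper-Pearson intervals for shares. All of these cover counting error only. A count of 0 allows up to 3 UMIs. For shares of cells with a UMI, each cell was thinned to 2000 UMIs (seed 1) and shallower cells were left out. Sums in clusters 0, 1, 2, 8 and 10 were fitted with edgeR 4.0.16 (quasi-likelihood, TMM, genes with 10 or more counts in 2 or more libraries) with age and day as terms, and p-values were adjusted by Benjamini-Hochberg over all genes of a cluster. DESeq2 1.42.0 was the alternative. In counts simulated for age with 4-fold changes in 200 genes, 97.5% to 99% were recovered, with 8 to 17 false calls among 8024 to 12043 genes. The simulation set a dispersion of 0.05 for all genes and no difference between days, and the changed genes were drawn from those with higher counts. Recovery of changes under 4-fold was not measured, so it does not show how often changes of the members' size would be called. Where no fit was made, genes at least 1.5-fold apart in the same direction on both days, or at both ages, were counted. Each cell was further checked for 11 neutrophil genes, and cells with 5 or more of their UMIs were left out as an alternative. Other alternatives were RLE size factors, no filter on low counts, *S100a8* and *S100a9* left out of the total, cells of 1000 or more UMIs, the mean over cells, thinning to 1000 UMIs or none, and each library left out in turn. Fits with a library left out kept only the term under test. Python 3.11.15 and R 4.3.3 were used.

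The members named are the 6 S100 genes in every cluster and library. Further names came from fixed lists of 10 other S100 genes, 9 partners and receptors and 11 neutrophil genes, and from the 3 genes most alike each member by Spearman's rho among genes of 50 CPM or more in some sum. *S100a16* and *Cldn5* in the bulk libraries were named after their values were seen. The members and lists were chosen with earlier results of these data known.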

Additional observations from a re-analysis of the deposited data

Results flagged for a closer look

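In 12 cases a member was at least 1.5-fold higher in one direction in one group and at least 1.5-fold in the opposite direction in the other, with both 95% counting intervals on opposite sides of 0. They were 5 of 88 pairs of age ratios and 7 of 88 pairs of day ratios. Each value compares 1 library with 1 library, and the difference between the groups was not tested.

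Most cases were *S100a8* and *S100a9* in lymphocytes. In T cell-like cluster 2 the age ratio (middle-aged over young, log2) was 1.69 on day 6 and -1.75 on day 10 for *S100a8*, and 1.40 and -1.97 for *S100a9*. In B cell-like cluster 4 it was 1.29 and -2.62 for *S100a8*, and 0.86 and -2.76 for *S100a9*. Without cells of 5 or more neutrophil-gene UMIs, the pair in cluster 4 stood at 114 (young) and 112 CPM (middle-aged) on day 6. The log2 ratio of day 10 over day 6 in cluster 2 was 2.58 in young and -0.86 in middle-aged mice for *S100a8*, and 2.19 and -1.19 for *S100a9*. In cluster 4 it was 2.41 and -1.50 for *S100a8*, and 2.29 and -1.33 for *S100a9*.

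In microglia-like cluster 8, *S100a9* was higher in middle-aged mice on day 6 (0.67) and lower on day 10 (-1.14). In cluster 11, *S100a9* was higher on day 10 in young mice (1.79) and lower in middle-aged mice (-1.90). *S100a4* in neutrophil-like cluster 0 was lower on day 10 in young mice (-0.97) and higher in middle-aged mice (1.59), at no more than 62.8 CPM. *S100a6* in cluster 12 gave 2.40 (young) and -0.95 (middle-aged), from 6 and 4 cells on day 6 and 131 and 19 cells on day 10.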

How the results depend on the processing

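Numbers of genes called for age depended on the settings. In cluster 0 (20 genes) RLE size factors gave 35, no filter on low counts 181 and DESeq2 5. In cluster 1 (12 genes) they were 4 with RLE size factors, 3 with no filter, 0 without neutrophil-gene cells and 0 without cells of other lineages, an exclusion chosen after seeing the data, and DESeq2 gave 12. In cluster 2 (7 genes) the same 4 settings gave 16, 34, 16 and 17. In cluster 8 (8 genes) no filter gave 41, DESeq2 2 and the cells without neutrophil genes 5. In cluster 10 (15 genes) no filter gave 53, DESeq2 5, and both exclusions of cells 6. With each library left out in turn, age gave 0 to 3 genes in cluster 0, 0 to 1 in cluster 10 and 0 in clusters 1, 2 and 8.

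For day, DESeq2 gave 2964 genes against 5218 in cluster 0, 1916 against 3654 in cluster 1, 379 against 820 in cluster 2, 244 against 1122 in cluster 8 and 138 against 701 in cluster 10. No filter gave 1201 in cluster 10, and the exclusion of other lineages 491 in cluster 8. Leaving out each library gave 3321 to 5183, 565 to 4910, 279 to 1925, 699 to 1438 and 194 to 1944 genes in clusters 0, 1, 2, 8 and 10, in fits with 1 term, in which a lone library is taken to vary like the pair.

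Background levels moved with the cells used. Without neutrophil-gene cells *S100a8* in cluster 2 was 47.7 CPM in middle-aged day 6, 141 in young day 10 and 39.7 in middle-aged day 10, and *S100a9* was 58.2, 181 and 49.6 CPM. In cluster 4 of middle-aged day 6 they were 49.3 and 62.4 CPM. As a mean over cells, *S100a8* in cluster 2 was 33.0 CPM in young day 6 and 196 in young day 10, and *S100a9* was 53.7, 104, 251 and 60.6 CPM over the libraries and 373 CPM in cluster 4 of young day 10.

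Some signs turned. The fitted day effect of *S100a8* in cluster 8 became 1.20 without neutrophil-gene cells and ranged from -0.65 to 0.47 over the libraries left out, and that of *S100a4* in cluster 0 from -1.60 to 0.67. For middle-aged over young on day 6, leaving out neutrophil-gene cells gave 1.01 for *S100a8* in cluster 1, and 1.42 for *S100a8*, 1.03 for *S100a9* and 0.14 for *S100a11* in cluster 10. The mean over cells gave -0.87 for *S100a4* and -0.18 for *S100a10* in cluster 8, 0.081 for *S100a8* in cluster 1 and 0.087 for *S100a11* in cluster 10, and on day 10 0.0064 for *S100a9* in cluster 0. The cause was not tested, except that each exclusion uses fewer cells. Of 516 fitted values of members, 459 kept their call or lack of a call, 34 gained a call and 20 lost one. In the other 3 the sign turned and a call was made in either fit. A turn of sign between fits without a call was counted as kept. No paired analysis was possible because the labels carry no replicate numbers and each age and day has 1 library. Depth limits *S100a4* and *S100a10* in neutrophil-like clusters and in the filtered cells of clusters 8 and 10, where they rest on few UMIs.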
